A study of Saccharomyces cerevisiae with 8 samples.

Results

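Transcripts of the Saccharomyces cerevisiae strain NBRC 0224, which the labels describe as AcOH sensitive, were measured on 4 Affymetrix Yeast Genome arrays of polyA RNA. The 2 arrays of cells sampled at 30 °C without acetic acid (0% AcOH) are compared here with the 2 arrays of cells sampled after 30 min at 0.6% acetic acid (0.6% AcOH), also at 30 °C. The series holds 4 further arrays of the strain NFRI 3145, described as AcOH tolerant, in the same pair of conditions, and was designed to pick a gene related to tolerance by comparing both strains. The labels name no genotype, ploidy, growth medium, growth phase or pH, give a time for the 0.6% AcOH cells only, and do not say whether replicates are separate cultures. A difference between the groups therefore cannot be told apart from an effect of time or handling. The p-values measure the spread between replicate arrays, pooled over all 8 arrays of both strains, and that spread may be technical. All genes with a usable signal were described: 3879 of the 5449 S. cerevisiae genes on the array exceeded the background on at least 2 of the 8 arrays. Of these, 2861 exceeded it on all 4 NBRC 0224 arrays, 876 on some of them and 142 on none. A bulk transcript level cannot separate fewer expressing cells from less RNA per cell.

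Acetic acid crosses the plasma membrane in its undissociated form and releases protons and acetate in the more neutral cytosol. Yeast answers weak acids with proton pumping by Pma1 and with anion export. The transcription factors Haa1 and War1 control part of that answer. Acetate itself can be activated to acetyl-CoA and used as a carbon source through the glyoxylate cycle and gluconeogenesis, whose genes glucose represses. Iron and copper uptake genes are switched on by Aft1 and Mac1 when the cell senses too little of either metal, and heat shock factor Hsf1 raises chaperones when proteins unfold.

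The background on the 4 arrays, taken as the 95th percentile of the Schizosaccharomyces pombe probe sets on the same chip, lay between 31.5 and 43.9 intensity units. The 0.6% AcOH replicates differed more than 2-fold for 12.8% of the genes and the 0% AcOH replicates for 5.47%. The 42 spiked control probe sets read 1.16 to 1.72 times higher on 0.6% AcOH replicate 2 than on replicate 1, and their log2 change with acid ran from 0.04 to 0.53. Of the 317 genes with a group mean above 10000, 245 had a positive log2 change, with a median of 0.17. Their part in the small rises of abundant transcripts was not tested. The median log2 change of all genes was −0.11, or −0.01 after quantile normalization and 0.05 after centring each array on its median.

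The 0.6% and 0% AcOH arrays of NBRC 0224 differed in 326 genes, which is 8.4% of those tested (limma, Benjamini-Hochberg adjusted p below 0.05). Of these, 140 rose, or 3.61%, and 186 fell, or 4.8%, with 90 rises and 140 falls of at least 2-fold. All 326 had no overlap between the 2 acid and the 2 control arrays, a property shared by 55.5% of all tested genes. The share of rises among the calls was 42.9%, against 54.5% after quantile normalization and 60.7% after median centring. Leaving out 0% AcOH replicate 1 left 44 rises and 31 falls, and leaving out 0% AcOH replicate 2 left 60 and 45. Without 0.6% AcOH replicate 1 there were 324 and 423, and without 0.6% AcOH replicate 2 there were 130 and 153.

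Leaving out an array leaves 1 array in its group, whose spread is then taken from the other groups. A call can therefore end although the size of the change hardly moves. Whether the values of the array left out or the changed spread ended a call was not tested. In what follows, a call is said to hold when the gene was called in the same direction with each of the 8 arrays of the series left out in turn. This was so for 54 genes, or 1.39% of those tested, 28 of them higher and 26 lower. The largest rises among them were in metalloreductase, gluconeogenic and iron uptake genes. The falls included small reading frames and the single genes IZH4 of zinc homeostasis, TIR4 of the hypoxic cell wall and HEM13 of heme synthesis. The other 272 calls ended without at least 1 array. The highest adjusted p came without 0% AcOH replicate 1 for 175 of them and without 0% AcOH replicate 2 for 95. Signals are given as replicate 1 and then replicate 2, in intensity units. Changes are given as log2 of 0.6% over 0% AcOH with their standard error (SE) from limma, n = 2 arrays a group. Counts of called list members stand beside the 3.61% higher and 4.8% lower of all tested genes.

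**Figure D1:**
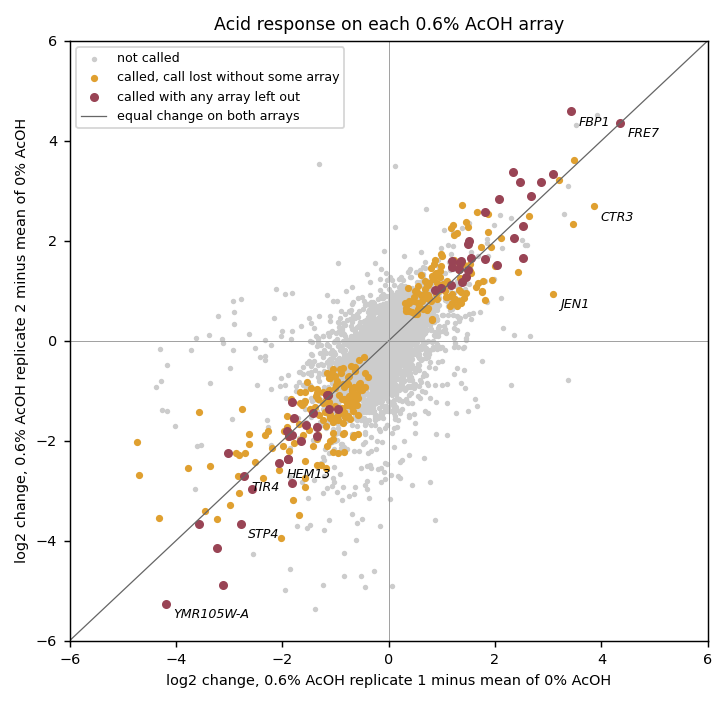
Log2 change of each tested gene on 0.6% AcOH replicate 1 (horizontal) and replicate 2 (vertical), each against the mean of both 0% AcOH arrays. Genes whose call holds with any array left out (dark red) lie near the line of equal change, with FRE7 and FBP1 at the upper end and YMR105W-A at the lower end, and many uncalled genes (grey) moved on 1 of the acid arrays only.

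Several of the largest rises were in iron and copper uptake genes. FRE7, a plasma membrane metalloreductase gene, read 152 and 238 at 0% AcOH and 3881 and 3905 at 0.6% AcOH. It was low on both control arrays and nearly equal on both acid arrays, a log2 change of 4.36 ± 0.26 (limma adjusted p = 9.37e-06), which is 20.5-fold. FET3, a multicopper oxidase that works with the iron permease, read 554 and 331 without acid and 3654 and 4310 with it. The control arrays of FET3 differed more than its acid arrays, and the groups stood far apart, at 3.21 ± 0.24 (limma adjusted p = 2.57e-05). FRE4, another reductase of this family, went from 243 and 266 to 1630 and 1899, a change of 2.79 ± 0.21.

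Of the 15 tested genes of plasma membrane reductases and metal ion transporters, 6 rose and none fell, 40% called against 8.4% of all tested genes. Their median log2 change was 0.51 against −0.11 over all genes. The calls of FRE7, FET3 and FRE4 held. The others were FRE1, the main ferric and cupric reductase (2.91 ± 0.47), FTR1, the iron permease partner of FET3 (0.99 ± 0.20), and FRE3, a reductase of siderophore-bound iron (1.20 ± 0.32). FRE1 and FRE3 reached adjusted p of 0.078 and 0.31 without 0% AcOH replicate 1, and FTR1 reached 0.087 without 0% AcOH replicate 2.

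Siderophore transport moved the same way, with 3 of 7 genes higher and none lower (median 0.58). Of these genes 42.9% were called, against 8.4% of all tested genes. ARN1, a siderophore transporter, read 1246 and 1529 without acid and 10037 and 12499 with acid. All 4 arrays of ARN1 were bright, the acid arrays lay near the top of the scale, and its change was 3.02 ± 0.20 (limma adjusted p = 1.48e-05). SIT1, the ferrioxamine transporter, rose by 1.78 ± 0.24, from 256 and 251 to 1040 and 727. FIT3, a cell wall mannoprotein that retains siderophores, rose by 0.93 ± 0.14, and its adjusted p was 0.0568 without 0% AcOH replicate 1.

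The genes that move iron inside the cell did not follow as a group: 1 of 15 rose and 2 fell. In this list 20% were called, against 8.4% of all tested genes. CCC1, which carries iron into the vacuole, fell by 1.19 ± 0.21 on the log2 scale, from 3879 and 4585 to 1850 and 1844. GRX4, a glutaredoxin that signals iron status, read 1686 and 1976 without acid and 814 and 1165 with acid, a change of −0.91 ± 0.24. TIS11, which promotes decay of mRNAs of iron-using proteins, rose by 1.23 ± 0.32. None of these 3 calls held, with adjusted p up to 0.253 for GRX4 without 0% AcOH replicate 2.

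Of the 9 copper genes, 3 rose and none fell, 33.3% called against 8.4% of all tested genes, and no call held. The copper transporter gene CTR3 read 55.3 and 174 without acid and 1420 and 631 with acid, so that each pair of replicates was more than 2-fold apart while the groups did not overlap (3.27 ± 0.69, limma adjusted p = 0.0161). Without 0% AcOH replicate 1 its adjusted p was 0.2. CTR1, the high-affinity copper transporter, rose by 1.75 ± 0.46, and SOD1, the copper and zinc superoxide dismutase, by 0.87 ± 0.18. Without 0% AcOH replicate 1 CTR1 had an adjusted p of 0.305, and SOD1 reached 0.11 without 0% AcOH replicate 2.

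Zinc homeostasis gave 3 falls and no rise among 14 genes, 21.4% called against 8.4% of all tested genes. All 3 falls were in the IZH family of membrane proteins. IZH4 read 309 and 286 on the control arrays and 34.3 and 10 on the acid arrays, where 1 array was below background, and was at least 7.66-fold lower (limma adjusted p = 0.000632). IZH2 went from 4124 and 2572 to 1094 and 484, a change of −2.16 ± 0.34, and IZH1 changed by −1.54 ± 0.38. The calls of IZH2 and IZH1 ended without 0% AcOH replicate 1 (adjusted p = 0.0715 and 0.282). ZRT1, the high-affinity zinc transporter, read 245 and 221 without acid and 302 and 252 with acid (log2 change 0.25 ± 0.26, not called). The median of the list was −0.07 and 0.09 after median centring, so the direction of the list as a whole depends on the scaling.

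**Figure D2:**
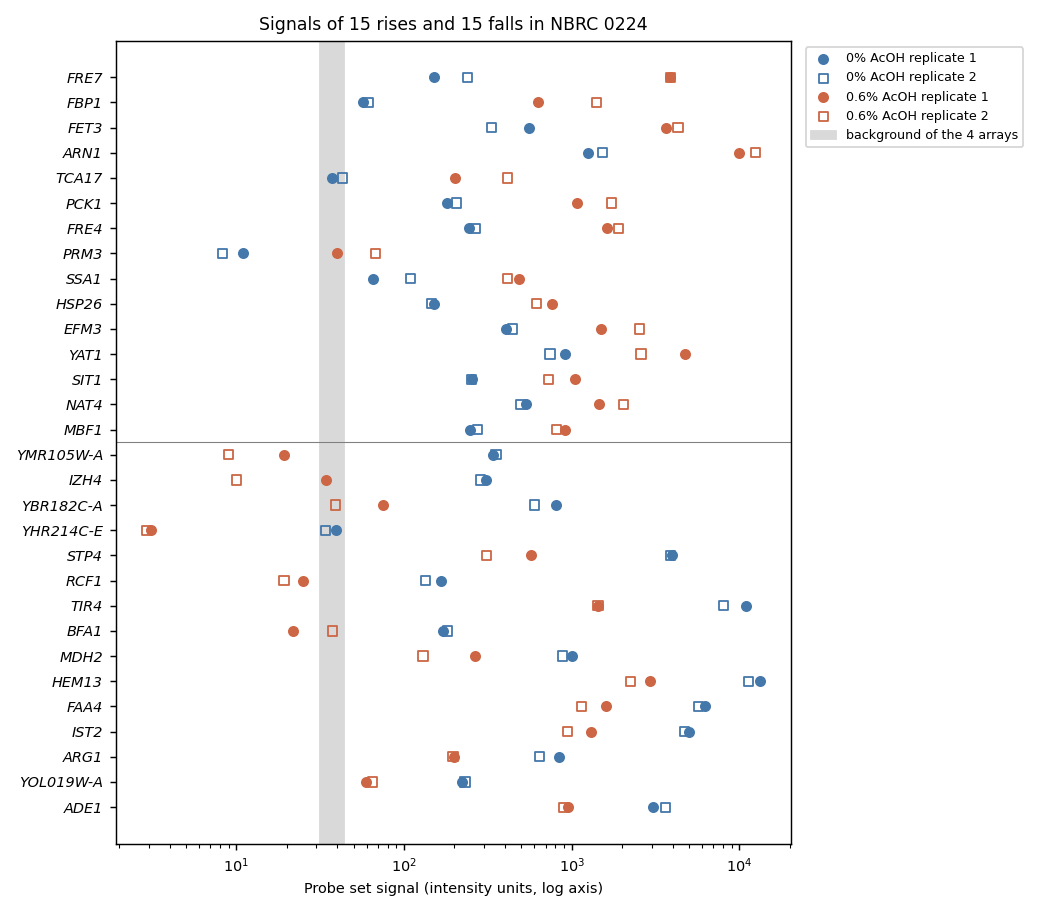
Signal (intensity units, log axis) of the 15 rises and 15 falls of largest size whose calls hold, on each of the 4 NBRC 0224 arrays, with the range of the array backgrounds in grey. In every one of these 30 genes the acid arrays (orange) and the control arrays (blue) are apart, and several falls, YMR105W-A and RCF1 among them, end below the background range.

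Both dedicated enzymes of gluconeogenesis rose. FBP1, fructose-1,6-bisphosphatase, read 56.6 and 60.9 at 0% AcOH and 633 and 1412 at 0.6% AcOH. The controls were not far above background and the acid arrays more than 2-fold apart from each other, and the change was 4.01 ± 0.39 (limma adjusted p = 0.00014). PCK1, phosphoenolpyruvate carboxykinase, read 181 and 206 without acid and 1071 and 1733 with it. Its groups were well separated, at 2.82 ± 0.26 (limma adjusted p = 9.96e-05). Both calls held.

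The other tested genes of the same route gave 2 falls and 4 genes that were not called. MDH2, the cytosolic malate dehydrogenase of this pathway, fell from 1000 and 882 to 265 and 130, a change of −2.34 ± 0.32, and this call held. PYC2, a pyruvate carboxylase gene, changed by −1.01 ± 0.22, with an adjusted p of 0.142 without 0% AcOH replicate 2. The glyoxylate cycle genes ICL1 and MLS1 were not tested, since their signals did not exceed background on enough arrays. Of the 8 tested members of the list, 2 rose and 2 fell, 50% called against 8.4% of all tested genes. The median was −0.22.

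Acetate use had 3 rises and no fall among 11 genes and the highest median of all lists, 0.81. Its share of called genes was 27.3%, against 8.4% of all tested genes. YAT1, a carnitine acetyltransferase, read 918 and 744 without acid and 4749 and 2591 with acid, and rose by 2.09 ± 0.29 (limma adjusted p = 0.00151). Both acid arrays of YAT1 were above both controls, replicate 1 the higher of them. JEN1, a lactate and pyruvate permease, read 345 and 357 without acid and 2996 and 674 with acid. Its acid arrays were more than 4-fold apart, and its call (2.02 ± 0.50) ended without 0% AcOH replicate 1 (adjusted p = 0.214). ACH1, an acetyl-CoA and CoA transferase gene, rose by 1.16 ± 0.29, with an adjusted p of 0.184 without 0% AcOH replicate 2. The acetyl-CoA synthetase genes ACS1 and ACS2 changed by 0.48 ± 0.19 and 0.13 ± 0.14, neither called. The median of the list was 1.45 on 0.6% AcOH replicate 1 and 0.38 on replicate 2, each against both controls.

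Among glucose transporters, 1 of 10 rose and 1 fell, 20% called against 8.4% of all tested genes. HXT1, a low-affinity transporter induced by high glucose, read 5714 and 5916 without acid and 13232 and 17529 with acid, a rise of 1.39 ± 0.17 that held (limma adjusted p = 0.000575) although the acid arrays lay near the top of the scale. HXT4, a transporter of higher affinity, fell from 11529 and 11605 to 5393 and 2873, a change of −1.55 ± 0.24, with an adjusted p of 0.0526 without 0% AcOH replicate 1. HXT3 read 15149 and 14836 without acid and 15862 and 14666 with acid, and its groups overlapped. Of 14 tested genes of glucose sensing and repression, 1 fell and none rose, 7.14% called against 8.4% of all tested genes. SNF1, MIG1, CAT8 and HAP4 were among the members of that list that were not tested. MTH1, a repressor of transporter genes in the absence of glucose, read 101 and 139 without acid and was below background on both acid arrays, at least 3.17-fold lower, and its adjusted p was 0.188 without 0% AcOH replicate 2.

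Hexose phosphorylation and storage had a few rises that did not hold. HXK1, a hexokinase, read 150 and 187 without acid and 905 and 432 with acid, a change of 1.90 ± 0.35, and GLK1, glucokinase, rose by 0.57 ± 0.16. These were the 2 calls among 17 genes of glycolysis, or 11.8% against 8.4% of all tested genes. Of the 17 genes, 15 had a positive change, with a median of 0.20, or 0.01 after quantile normalization. GPH1, glycogen phosphorylase, rose by 2.05 ± 0.39, from 259 and 432 to 866 and 2205. TSL1, a subunit of trehalose synthase, rose by 0.99 ± 0.26. GPH1 and TSL1 were the 2 calls among 16 genes of trehalose and glycogen, or 12.5%. HXK1 and GPH1 had adjusted p of 0.117 and 0.138 without 0% AcOH replicate 1, and GLK1 and TSL1 of 0.276 and 0.244 without 0% AcOH replicate 2. ADH5, an alcohol dehydrogenase gene, fell from 4657 and 4135 to 1394 and 1089, a change of −1.83 ± 0.19 that held.

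Some chaperone genes of the cytosol and of mitochondria rose, while most members of these lists did not pass the test. The rises were 3 of 10 around Hsp90, 2 of 12 cytosolic Hsp70 and small heat shock proteins and 2 of 6 in mitochondria. Over all tested genes 3.61% rose and 4.8% fell. HSC82, the constitutive Hsp90, read 3330 and 3456 at 0% AcOH and 8638 and 9983 at 0.6% AcOH, with both pairs of replicates tight (1.45 ± 0.12, limma adjusted p = 5.8e-05). AHA1, which stimulates the ATPase of Hsp90, rose by 1.59 ± 0.20, from 450 and 594 to 1509 and 1617. STI1, which links Hsp70 to Hsp90, rose by 1.53 ± 0.31, with an adjusted p of 0.159 without 0% AcOH replicate 1. These were the 3 calls among 10 genes of Hsp90 and its partners, none of which fell. The median of that list was 0.16, at 0.04 on 0.6% AcOH replicate 1 and 0.62 on replicate 2.

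SSA1, a cytosolic Hsp70, read 65.4 and 110 without acid and 486 and 414 with acid, a rise of 2.40 ± 0.30 (limma adjusted p = 0.000632). HSP26, a small heat shock protein that binds unfolded proteins, went from 152 and 146 to 764 and 617, a rise of 2.21 ± 0.22. Both stood clear of their controls on each array. SSZ1, an Hsp70 of the ribosome, changed by −0.99 ± 0.20, with an adjusted p of 0.12 without 0% AcOH replicate 2. The rest of the 12 genes of this list were not called, HSP104 was not above background on enough arrays to be tested, and SSA2 read 4652 and 4288 without acid and 10433 and 5319 with acid (0.74 ± 0.26). In mitochondria, the chaperonin genes HSP60 and HSP10 rose by 1.01 ± 0.13 and 1.48 ± 0.16, and both calls held. HSP60 read 5031 and 5124 without acid and 10015 and 10508 with acid, HSP10 read 4249 and 3902 and 10492 and 12228, and these were the 2 calls among 6 genes. The median of the mitochondrial list was 0.70 on 0.6% AcOH replicate 1 and 0.05 on replicate 2. None of the 10 tested genes of the cytosolic chaperonin TRiC and prefoldin was called (2 were lower at an unadjusted limma p under 0.05), with TCP1, a TRiC subunit, at 0.07 ± 0.17 and 8 of the 10 changes negative.

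General stress genes controlled by Msn2 and Msn4 gave 5 rises and no fall among 24, but no call held. Besides HXK1 and GLK1 these were TFS1, a carboxypeptidase Y inhibitor (1.03 ± 0.24), GRE3, an aldose reductase (0.93 ± 0.24), and DDR2, which was at least 2.19-fold higher with 1 control array below background. The median of this list was 0.06, and 20.8% of it was called, against 8.4% of all tested genes. The calls of TFS1 and DDR2 ended without 0% AcOH replicate 1 (adjusted p = 0.226 and 0.253), as did that of GRE3 (adjusted p = 0.224).

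Antioxidant genes also had 5 rises and no fall, among 26, which is 19.2% called against 8.4% of all tested genes. AHP1, a peroxiredoxin, read 3500 and 2992 without acid and 9081 and 8634 with acid, well apart, a rise of 1.45 ± 0.16 (limma adjusted p = 0.000364). TRX2, a cytosolic thioredoxin, rose by 1.27 ± 0.17, from 422 and 432 to 1109 and 960, and both calls held. SOD2, the mitochondrial superoxide dismutase, rose by 1.12 ± 0.20, with an adjusted p of 0.0837 without 0% AcOH replicate 1. GPX2, a glutathione peroxidase, was at least 2.3-fold higher from below background on both controls, with an adjusted p of 0.192 without 0% AcOH replicate 2. The fifth call was SOD1.

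No tested gene of the list of Haa1 and weak-acid response targets rose, and none was higher at an unadjusted limma p under 0.05 either. PHM8 and HRK1 of this list did not exceed background on enough arrays to be tested. Of the 14 tested genes of this list, 3 fell, 21.4% called against 8.4% of all tested genes. The median was −0.33, at −0.07 on 0.6% AcOH replicate 1 and −0.87 on replicate 2. HAA1 itself read 80.8 and 66 without acid and 33.2 and 31 with acid, where 1 array was below background, and was at least 1.91-fold lower (limma adjusted p = 0.0405). MRH1, a membrane protein, and SUR2, a sphingolipid hydroxylase, changed by −0.76 ± 0.15 and −1.29 ± 0.34. None of the 3 calls held, with adjusted p of 0.254, 0.166 and 0.224 without 0% AcOH replicate 1. The exporter genes TPO2 and TPO3 read 9790 and 11697 and 656 and 876 without acid and 8314 and 4005 and 713 and 393 with acid, neither called.

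The genes of acid entry and anion export showed no common direction. PDR12, which exports carboxylate anions, fell from 5042 and 4448 to 3065 and 2082, a change of −0.91 ± 0.21 (limma adjusted p = 0.0259), and WAR1, its activator, changed by −0.33 ± 0.35, not called. AZR1, a transporter linked to azole and acetate resistance, changed by −1.91 ± 0.44, from 2258 and 2442 to 633 and 618. PMP1, a small proteolipid of the plasma membrane proton pump, rose by 0.51 ± 0.11. Without 0% AcOH replicate 1 the adjusted p of PDR12 was 0.216 and that of PMP1 0.173, and without 0% AcOH replicate 2 that of AZR1 was 0.181.

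FPS1, the glycerol channel through which undissociated acetic acid enters, read 198 and 198 without acid and 108 and 76.9 with acid, with both acid arrays below both controls. The log2 change of FPS1 was −1.12 ± 0.34 and was not called (limma adjusted p = 0.0716), while it was called without 0.6% AcOH replicate 1 (adjusted p = 0.0441). PMA1, the plasma membrane proton pump, read 16009 and 15436 without acid and 16871 and 18856 with acid, near the top of the scale (0.18 ± 0.11, adjusted p = 0.346). HSP30, a small membrane protein that restrains Pma1, read 167 and 281 without acid and 1063 and 117 with acid. Its acid arrays lay above and below the controls, and the log2 change of HSP30 was 2.29 and called without 0.6% AcOH replicate 2 (adjusted p = 0.00332) and 0.70 and not called with all arrays. Without 0.6% AcOH replicate 1 its sign turned, at −0.89 (adjusted p = 0.0978). In the vacuolar proton pump 1 of 16 genes rose, VMA11, by 0.60 ± 0.12, with an adjusted p of 0.109 without 0% AcOH replicate 2.

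Purine synthesis held the largest share of falls, 7 of 16 tested genes against 4.8% of all genes, with no rise and a median of −0.72. ADE1, a mid-pathway enzyme, read 3077 and 3635 without acid and 952 and 901 with acid, tight in both groups and far apart, a change of −1.85 ± 0.20 that held (limma adjusted p = 0.000233). ADE4, the first committed enzyme, went from 679 and 404 to 131 and 122 (−2.05 ± 0.32), and ADE13, adenylosuccinate lyase, from 3650 and 2560 to 728 and 507 (−2.33 ± 0.38). ADE2, ADE17, ADE12 and IMD3, further enzymes of AMP and GMP synthesis, changed by −1.88, −0.87, −1.25 and −1.37. The 6 calls besides ADE1 ended without 0% AcOH replicate 1, with adjusted p from 0.0715 for ADE4 to 0.299 for ADE12. The median of the list was −0.50 on 0.6% AcOH replicate 1 and −0.90 on replicate 2.

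Genes that supply glycine and folate units moved less uniformly, with 3 falls and 1 rise among 15 (26.7% called, against 8.4% of all tested genes). SER3, the first enzyme of serine synthesis, read 426 and 252 without acid and 46.7 and 39.4 with acid, at least 7.22-fold lower. GCV2, of the glycine cleavage complex, changed by −1.15 ± 0.22, and SER2, phosphoserine phosphatase, was at least 1.37-fold lower. MET13, a methylenetetrahydrofolate reductase, rose by 0.85 ± 0.23. No call held: without 0% AcOH replicate 1 the adjusted p of SER3 was 0.124, and those of the others went up to 0.286, for SER2.

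Amino acid synthesis gave isolated calls. ARG1, argininosuccinate synthetase, read 836 and 644 without acid and 200 and 196 with acid, with nearly equal acid arrays, a change of −1.89 ± 0.23 that held (limma adjusted p = 0.00054). ARG4, the next enzyme, changed by −0.75 ± 0.17, while CAR1, arginase, rose by 0.78 ± 0.15. GCN4, the activator of these pathways, went from 10286 and 9747 to 7319 and 5246 (−0.69 ± 0.17). Of 38 genes for histidine, lysine, branched-chain and aromatic amino acids, 2 rose and 3 fell, GCN4 among them. In this list 13.2% were called, against 8.4% of all tested genes. The rises were those of LYS20, a homocitrate synthase of lysine synthesis (1.05 ± 0.22), and ARO9, an aromatic aminotransferase (1.06 ± 0.29). The falls were those of BAT2, a branched-chain aminotransferase (−1.03 ± 0.22), and ILV5, an enzyme of branched-chain synthesis (−1.04 ± 0.27). The calls of these 4 genes did not hold, and each ended without a 0% AcOH array. ARG4, CAR1 and GCN4 reached adjusted p of 0.167, 0.0874 and 0.238 without 0% AcOH replicate 1.

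In nitrogen catabolism 3 of 18 genes fell and none rose, 16.7% called against 8.4% of all tested genes. GLT1, glutamate synthase, went from 9073 and 9302 to 4574 and 5623 (−0.86 ± 0.14), and GAT1, a nitrogen regulator, changed by −1.28 ± 0.29. GDH2, the catabolic glutamate dehydrogenase, read 1499 and 694 without acid and 198 and 152 with acid (−2.56 ± 0.49), its controls more than 2-fold apart. The calls ended without 0% AcOH replicate 1 for GLT1 and GDH2 (adjusted p = 0.0597 and 0.238), and GAT1 reached 0.205 without 0% AcOH replicate 1.

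Cytosolic tRNA synthetases had 4 falls and no rise among 20, 20% called against 8.4% of all tested genes. There were 17 negative changes, and the median was −0.69. ALA1, for alanine, went from 2446 and 1988 to 1324 and 749 (−1.15 ± 0.26), and GRS1, ILS1 and THS1, for glycine, isoleucine and threonine, changed by −0.83, −0.82 and −0.92. No call held, with adjusted p between 0.208 for ALA1 and 0.252 for THS1 without 0% AcOH replicate 1. The median was −0.32 on 0.6% AcOH replicate 1 and −0.82 on replicate 2.

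Sulfur uptake had 4 rises and 1 fall among 25 genes of sulfate assimilation and methionine metabolism, 20% called against 8.4% of all tested genes. MMP1, the S-methylmethionine permease, read 3872 and 5238 without acid and 10269 and 12462 with acid, a rise of 1.33 ± 0.16 that held. Its chromosomal neighbour MHT1, the methyltransferase that uses S-methylmethionine, went from 59.1 and 89.6 to 265 and 326 (2.01 ± 0.50), and SAM3, the S-adenosylmethionine permease, from 2334 and 3093 to 5092 and 5345 (0.96 ± 0.17). MET17, which makes homocysteine from sulfide, rose by 0.71 ± 0.12. MUP3, a low-affinity methionine permease, fell from 6705 and 7865 to 3350 and 2806, a change of −1.24 ± 0.16 that held (limma adjusted p = 0.000737). MHT1, SAM3 and MET17 had adjusted p of 0.253, 0.105 and 0.108 without 0% AcOH replicate 1. Of 20 other permeases of amino acids, peptides and ammonium, 2 rose, BAP2 by 0.75 ± 0.16 and BAP3 by 0.61 ± 0.17, both for branched-chain amino acids, and neither call held (adjusted p = 0.142 and 0.282 without the same array).

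Heme and oxygen regulated genes gave several falls with close replicates. HEM13, the oxygen-dependent coproporphyrinogen oxidase of heme synthesis, read 13314 and 11324 without acid and 2937 and 2247 with acid. TIR4, a cell wall mannoprotein of hypoxic cells, read 11046 and 8096 without acid and 1441 and 1437 with acid. Both genes were bright on every array and more than 3-fold apart between groups, at −2.26 ± 0.17 and −2.72 ± 0.20 (limma adjusted p = 2.53e-05 for each). AAC3, the ADP and ATP carrier used without oxygen, went from 3620 and 3676 to 1350 and 1331 (−1.44 ± 0.18), and TIR1, a relative of TIR4, changed by −0.55 ± 0.13. The first 3 calls held and that of TIR1 ended without 0% AcOH replicate 1 (adjusted p = 0.195). These 4 were the only calls among 24 tested genes of this list, or 16.7% against 8.4% of all tested genes. The median of the list was −0.10 and turned to 0.02 after quantile normalization. In the cell wall list 1 of 30 genes rose and 1 fell: TIP1, a mannoprotein, fell from 17059 and 15430 to 7218 and 7597 (−1.13 ± 0.12) and held, and GSC2, a glucan synthase, rose by 0.77 ± 0.18 and reached 0.239 without 0% AcOH replicate 1.

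Genes of fatty acid, phospholipid and sphingolipid synthesis had 5 falls and no rise among 29, 17.2% called against 8.4% of all tested genes. OLE1, the fatty acid desaturase, read 15459 and 13826 without acid and 7525 and 5653 with acid, a change of −1.16 ± 0.16 that held (limma adjusted p = 0.00142). YPC1, an alkaline ceramidase, changed by −1.61 ± 0.29, SUR1, a mannosylinositol phosphorylceramide synthase subunit, by −0.86 ± 0.22, and PIS1, phosphatidylinositol synthase, by −0.40 ± 0.11, and the fifth fall was that of SUR2. Among 16 genes of fatty acid oxidation and the peroxisome, 1 rose and 2 fell, 18.8% called. FAA4, which activates imported long-chain fatty acids, went from 6210 and 5694 to 1604 and 1144 (−2.13 ± 0.19) and held, while FAA1, another acyl-CoA synthetase, rose by 1.49 ± 0.31. TES1, a peroxisomal thioesterase, changed by −0.74 ± 0.20, with an adjusted p of 0.252 without 0% AcOH replicate 1. In ergosterol synthesis 1 of 28 rose and 2 fell, 10.7% called. These were MVD1, a decarboxylase of the mevalonate route, at 0.52 ± 0.13, HMG2, an HMG-CoA reductase, at −0.93 ± 0.14, and ERG28, a scaffold of sterol enzymes, at −0.74 ± 0.17. MVD1 and ERG28 reached adjusted p of 0.269 and 0.214 without 0% AcOH replicate 1. YPC1, FAA1 and HMG2 lost the call without 0% AcOH replicate 1 (adjusted p = 0.117, 0.159 and 0.0531), and SUR1 and PIS1 without 0% AcOH replicate 2 (adjusted p = 0.247 and 0.238).

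Few ribosomal protein genes were called. Of 75 genes of the large subunit 3 rose and 1 fell (median 0.15). Of 53 genes of the small subunit 2 rose and 2 fell (median 0.12). The shares called were 5.33% and 7.55%, against 8.4% of all tested genes. Changes were positive for 56 of the 75 and 33 of the 53, and the medians were 0.07 and 0.03 after quantile normalization. At an unadjusted limma p under 0.05, 10 large subunit genes were higher and 5 lower, and 6 small subunit genes were higher and 4 lower. RPS28A went from 1144 and 1154 to 2600 and 2482, a rise of 1.15 ± 0.14 that held, and RPL43A from 5499 and 4681 to 8541 and 9002 (0.79 ± 0.14, adjusted p = 0.0914 without 0% AcOH replicate 2). The other calls were rises of RPL22A (1.07 ± 0.24), RPL43B (0.65 ± 0.15) and RPS21B (1.08 ± 0.20), and falls of RPL24A (−0.73 ± 0.18), RPS1A (−1.11 ± 0.29) and RPS1B (−1.01 ± 0.27), none of which held. All these genes belong to pairs of similar copies, and a probe set may read both. Of 63 ribosome biogenesis factors 1 rose and 3 fell, with 42 negative changes and a median of −0.37. ENP1 and UTP30 changed by −0.98 ± 0.25 and −1.18 ± 0.33, NOP15 was at least 2.5-fold lower with 1 acid array below background, and RPF1 was below background on 3 of the 4 arrays. No call of this list held. Among 32 translation factors the release factor gene SUP45 and SUI2, a subunit of initiation factor eIF2, fell by 0.93 and 1.11 on the log2 scale, with adjusted p of 0.161 without 0% AcOH replicate 2 and 0.248 without 0% AcOH replicate 1. The proteasome list had 1 call among 29 genes: UBI4, polyubiquitin, read 13.2 and 57.4 without acid and 170 and 154 with acid, at least 3.47-fold higher, with an adjusted p of 0.137 without 0% AcOH replicate 1. The changes of 21 of these 29 were negative, with a median of −0.40. No gene was called among 16 of pyrimidine synthesis, 9 histone, 9 mating, 5 meiosis, 34 mitochondrial ribosomal and 21 RNA polymerase I and III genes. At an unadjusted limma p under 0.05 these lists held 2, 1, 0, 1, 5 and 3 genes. In those lists the brightest members changed by 0.07 ± 0.12 (RNR2), 0.08 ± 0.16 (HTB2), 0.44 ± 0.17 (MRPS12) and 0.10 ± 0.12 (RPA14).

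Further lists had few calls, and none of those calls held. Among 20 genes of phosphate starvation 2 rose and 2 fell, 20% called against 8.4% of all tested genes. PHO89, a sodium and phosphate cotransporter, was below background on both controls, 9.6 and 8.4, and read 83.1 and 83.3 with acid, at least 2.41-fold higher, and its adjusted p was 0.188 without 0.6% AcOH replicate 2. PHO91, the vacuolar phosphate transporter, rose by 0.54 ± 0.13, and the acid phosphatase PHO5 and the polyphosphate synthase subunit VTC4 changed by −1.39 ± 0.32 and −0.58 ± 0.15. PHO5 went from 1094 and 1163 to 380 and 488, with both acid arrays well below both controls. The calls of PHO91, PHO5 and VTC4 ended without a 0% AcOH array.

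In respiration, 2 of 34 genes of the respiratory chain and ATP synthase rose and none fell. That is 5.88% called, under the 8.4% of all tested genes. NDE1, the external NADH dehydrogenase, went from 4721 and 5324 to 8211 and 9381 (0.81 ± 0.15), and CYC1, cytochrome c, from 608 and 464 to 1119 and 968 (0.97 ± 0.22). IDH2, a subunit of isocitrate dehydrogenase, rose by 0.92 ± 0.21, the 1 call among 16 genes of the TCA cycle. The adjusted p of NDE1 and IDH2 reached 0.118 and 0.178 without 0% AcOH replicate 1, and that of CYC1 0.184 without 0% AcOH replicate 2. Single falls were those of GPP1, a glycerol phosphatase, among 9 genes of glycerol metabolism (−1.13 ± 0.30), EUG1, a protein disulfide isomerase, among 16 of folding in the endoplasmic reticulum (−0.87 ± 0.24), and THI3, a regulator of thiamine genes, among 16 of thiamine and pyridoxine (−1.28 ± 0.31). FAR1, an inhibitor of the G1 cyclin kinase, was at least 2.02-fold lower with 1 acid array below background, the 1 call among 14 cell cycle genes. Of 13 genes of autophagy and vacuolar proteases, APE1, a vacuolar aminopeptidase, changed by −1.42 ± 0.31, and ATG7, an activating enzyme of autophagy, was at least 2.47-fold higher from below background on both controls.

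**Figure D3:**
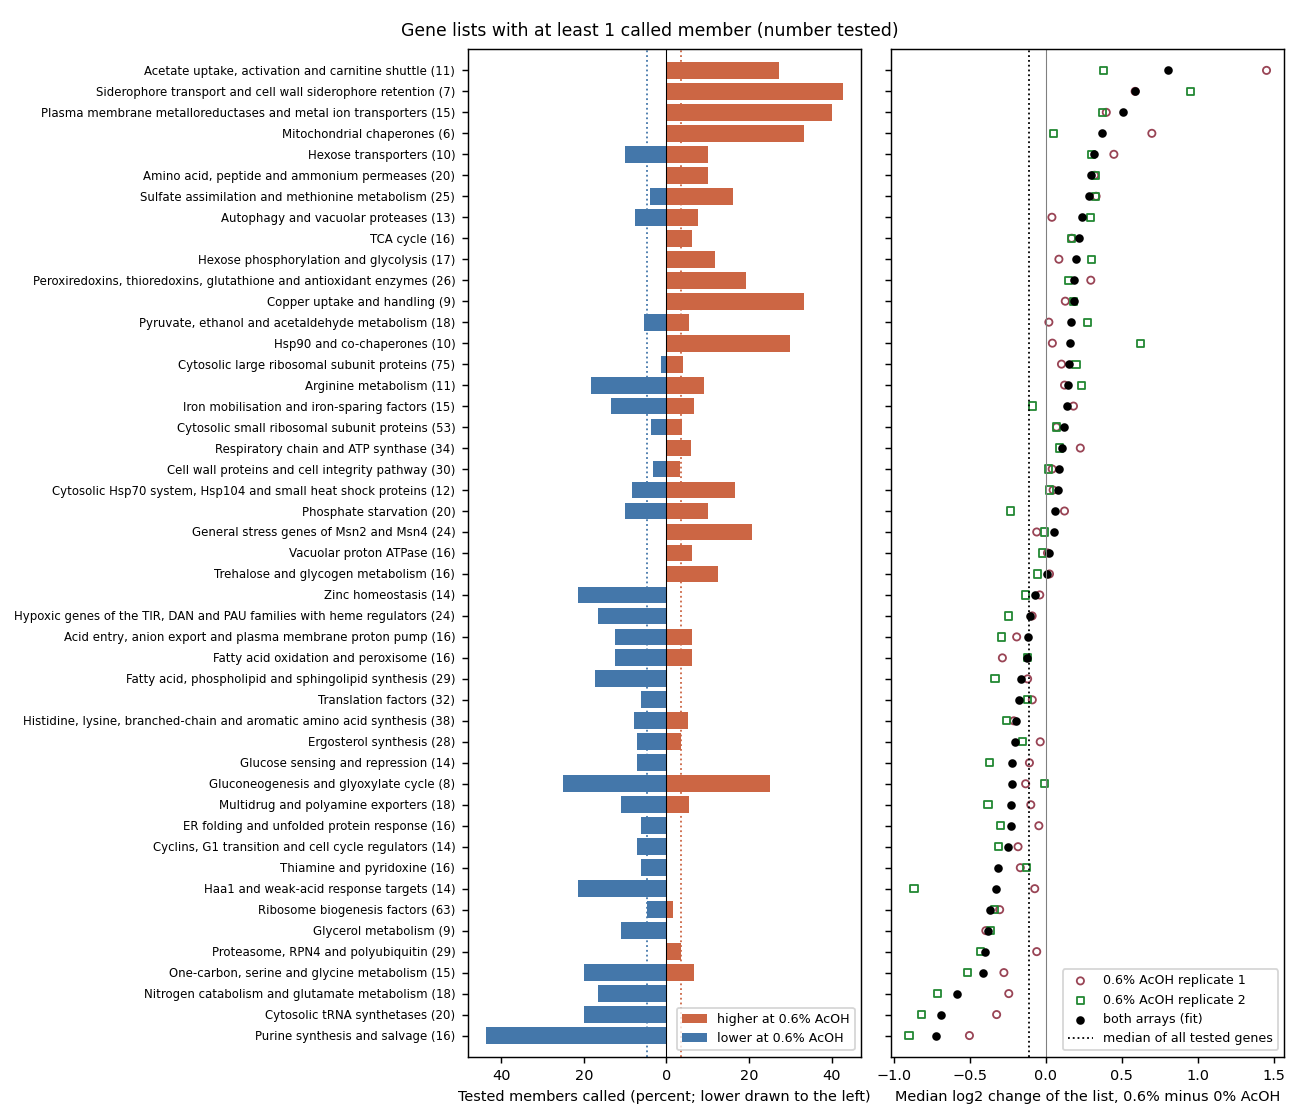
Gene lists with at least 1 called member, ordered by median: the share of tested members called higher (orange) and lower (blue), with the shares of all tested genes dotted, and the median log2 change on each 0.6% AcOH array against both controls. Purine synthesis and tRNA synthetases have the lowest medians, acetate use has the highest, and the 2 acid arrays stand furthest apart in acetate use, followed by Haa1 targets, mitochondrial chaperones and Hsp90.

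The other large rises whose calls hold were in no list. TCA17, a component of a vesicle tethering complex, read 37.4 and 43 without acid and 202 and 414 with acid, at least 7.15-fold higher with 1 control below background (limma adjusted p = 0.00161). EFM3, a methyltransferase of a translation elongation factor, rose by 2.19 ± 0.26, from 408 and 443 to 1493 and 2538. NAT4, which acetylates histone tails, rose by 1.75 ± 0.28, and MBF1, a coactivator that bridges Gcn4 and the TATA-binding protein, by 1.73 ± 0.20, from 247 and 274 to 915 and 808. In each of these the acid arrays lay above the controls by more than their own spread. PRM3, a nuclear envelope protein of mating cells, rose from below background, 10.9 and 8.3, to 39.9 and 67.8, at least 1.50-fold. With dim signals raised to background the log2 change of PRM3 was 0.59 and not called (adjusted p = 0.191), nor was it called with the 4 NBRC 0224 arrays alone (adjusted p = 0.0604).

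Among the falls, STP4, a zinc finger protein, read 3972 and 3881 without acid and 571 and 311 with acid, with nearly equal controls and acid arrays far below them, a change of −3.22 ± 0.28 (limma adjusted p = 5.8e-05). IST2, which ties the endoplasmic reticulum to the plasma membrane, went from 4989 and 4694 to 1302 and 943 (−2.13 ± 0.30). TPO4, a polyamine exporter, fell from 9274 and 9942 to 3766 and 2564 (−1.63 ± 0.23) and belongs to a list of 18 multidrug and polyamine exporters in which 1 gene rose and 2 fell. The others were RSB1, an exporter of sphingoid bases (0.91 ± 0.18), and YOR1, a drug exporter (−1.22 ± 0.33), with adjusted p of 0.124 and 0.239 without 0% AcOH replicate 1. RCF1, an assembly factor of respiratory supercomplexes, and BFA1, a spindle checkpoint protein, were below background on both acid arrays and at least 3.99-fold and 4.71-fold lower.

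Small or unnamed reading frames made up 4 of the 15 largest falls that hold. YMR105W-A read 339 and 354 without acid and 19.1 and 9 with acid, below background on both acid arrays and at least 9.27-fold lower (limma adjusted p = 2.73e-05). YBR182C-A read 806 and 599 and 74.4 and 39.1, at least 12.2-fold lower. YOL019W-A went from 221 and 231 to 59.6 and 64.7 (−1.86 ± 0.25). YHR214C-E read 39.5 and 34 without acid, barely above background, and 3.1 and 2.9 with acid, so that no fold is given, and with dim signals raised to background the log2 change of YHR214C-E was 0.03. Of 171 tested genes with letter-suffixed systematic names, 8 rose and 17 fell, and 7 calls held. Over all tested genes 3.61% rose, 4.8% fell and 1.39% had a call that held. The calls that held in this class include those of MBF1, which rose, and ERI1, which both have standard names.

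Beyond these, 9 more genes whose calls hold were picked out after their values were seen. APT2, a relative of adenine phosphoribosyltransferase, rose by 1.72 ± 0.17, from 2950 and 3652 to 9215 and 12596. AQY2, an aquaporin, rose by 1.36 ± 0.18, from 1969 and 2749 to 6348 and 5613, POP8, a subunit of RNase P, by 1.38 ± 0.22, and YAR068W, an unnamed reading frame, by 0.94 ± 0.14. SFB3, a coat protein of vesicles that leave the endoplasmic reticulum, fell from 2866 and 2585 to 1066 and 819 (−1.54 ± 0.22). ERI1, a subunit of the enzyme that starts GPI anchors, changed by −1.12 ± 0.16, and the unnamed frames YNR014W and YJL047C-A by −1.67 ± 0.17 and −1.62 ± 0.20. A further frame, YBL111C, lies in a subtelomeric repeat and is read by a probe set that can bind related sequences (−1.52 ± 0.21).

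**Figure D4:**
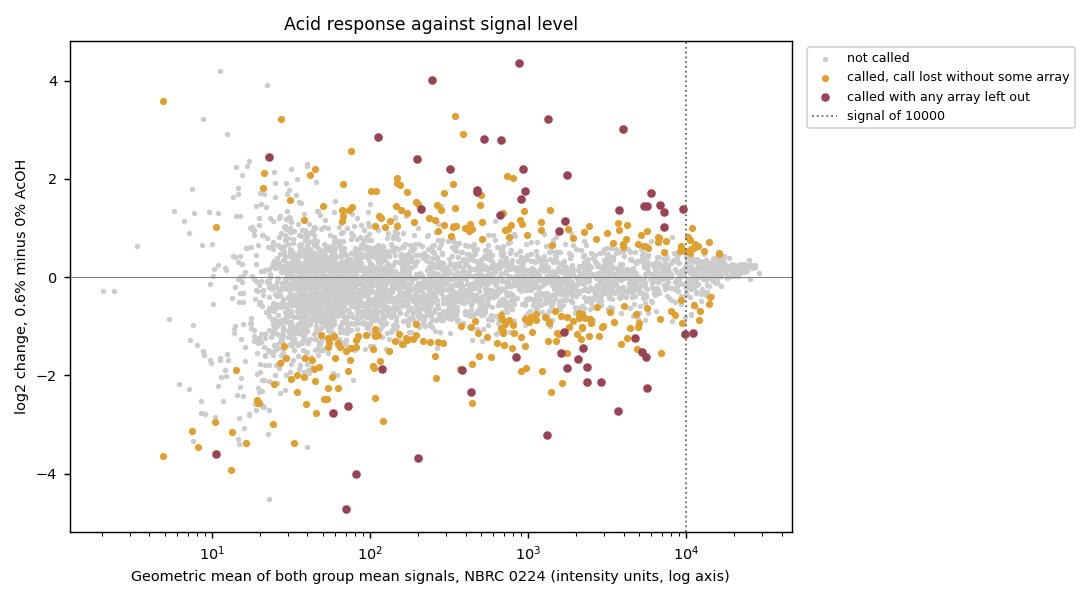
Log2 change against the geometric mean of both group means in NBRC 0224 (intensity units, log axis). Calls at low signal need larger changes, and above 10000 (dotted) the changes narrow towards small positive values.

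The precision depended on signal level. When the genes were ranked by level into 4 equal bins, the median SE of the dimmest bin was 0.62, with 7 rises and 30 falls, and that of the brightest was 0.17, with 59 rises and 59 falls. The median change went from −0.36 in the dimmest to 0.07 in the brightest bin. In all, 27 called falls ended below background on both acid arrays, and 5 called rises began below it on both controls, so their sizes are lower bounds. A further 86 genes were at least 2-fold higher and 259 at least 2-fold lower without being called.

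The response of NBRC 0224 was compared with that of NFRI 3145 by the difference of both changes in the same fit, NFRI 3145 minus NBRC 0224. That difference was called for 33 genes, 0.851% of those tested, of which 22 were called in NBRC 0224 itself. Of the 54 genes whose calls hold in NBRC 0224, 48 changed in the same direction in NFRI 3145 and 11 had a called difference. These 54 genes were chosen by their NBRC 0224 change, which is also part of the difference. Their share of called differences can therefore be raised by the choice alone. The share of same-direction changes over all tested genes was not counted. Only for FRE7 and PCK1 among these 11 did the called difference hold with any array left out. It also held for YET1, a gene of the endoplasmic reticulum singled out after its values were seen. YET1 read 969 and 920 without acid and 591 and 356 with acid in NBRC 0224 (−1.04 ± 0.29). In NFRI 3145 it read 1578 and 1839 without acid and 35.7 and 24.3 with acid. Both acid values there lie below the array backgrounds of 43.6 and 39.9, so the size of that difference rests on values at the floor. The fall of YET1 in NBRC 0224 itself was lost without 0% AcOH replicate 1 or 2, with an adjusted p of up to 0.257.

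FRE7 read 134 and 117 in NFRI 3145 at 0% AcOH and 199 and 242 at 0.6% AcOH, so that its change there was 0.81 and the difference −3.55 ± 0.37 (limma adjusted p = 0.00107). PCK1 read 200 and 190 without acid and 113 and 106 with acid in NFRI 3145, lower with acid where NBRC 0224 was higher, a difference of −3.65 ± 0.37 (limma adjusted p = 0.00107). FBP1 read 131 and 207 and 77.2 and 127 there, a difference of −4.74 ± 0.56 (adjusted p = 0.00283, and 0.0536 at most with an array left out). FET3 and ARN1 had no called difference and changed by 3.40 and 2.30 in NFRI 3145.

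HXK1, GLK1 and MPC3, a mitochondrial pyruvate carrier subunit, were called higher in NBRC 0224 and changed by −1.29, −0.89 and −0.77 in NFRI 3145. The differences of −3.19 ± 0.50, −1.45 ± 0.22 and −2.07 ± 0.42 were called, and each call ended with some array left out (adjusted p up to 0.126, 0.0967 and 0.184). HXT1 rose in both strains, by 2.91 in NFRI 3145 from a lower start of 789 and 906, a difference of 1.52 ± 0.24. HSC82 read 17809 and 18491 without acid and 23891 and 21937 with acid in NFRI 3145, already near the top of the scale, a difference of −1.12 ± 0.18. The differences of HXT1 and HSC82 had adjusted p of 0.111 and 0.111 with an array left out.

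Among the falls, ARG1 changed by 0.62 in NFRI 3145, a difference of 2.51 ± 0.32 (limma adjusted p = 0.00414). TIR4 read 1233 and 1181 without acid and 788 and 641 with acid there, a difference of 1.95 ± 0.28 (adjusted p = 0.0116). Both differences ended without some array (adjusted p up to 0.0602 and 0.0956). The median change of the tRNA synthetases was −0.69 in NBRC 0224 and 0.10 in NFRI 3145, and that of purine synthesis −0.72 and −0.35, with no called difference for a member of either list.

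**Figure D5:**
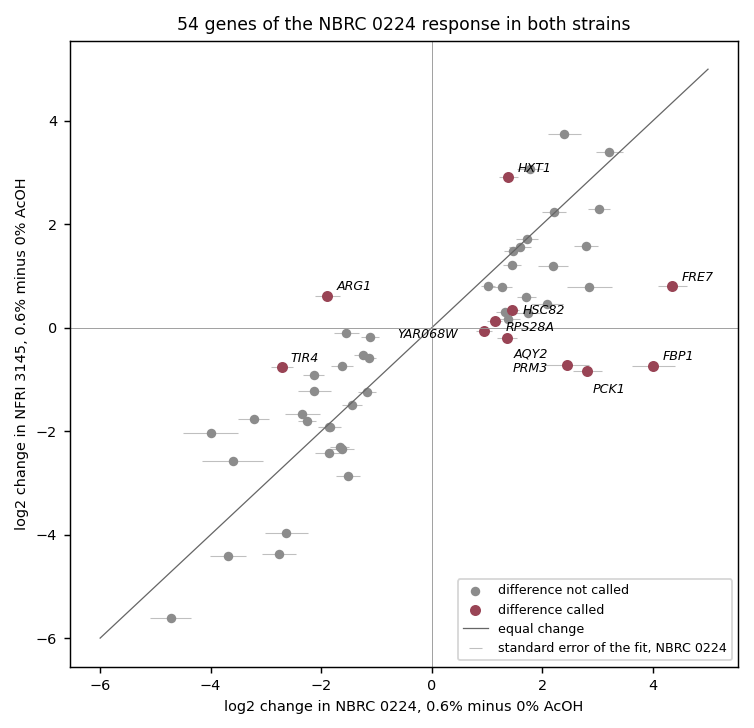
Log2 change in NBRC 0224 (horizontal, with the SE of the fit) and in NFRI 3145 (vertical) of the 54 genes whose NBRC 0224 calls hold. The 11 genes with a called difference (dark red) are labelled. FBP1, PCK1 and PRM3 lie below 0 in NFRI 3145, as do AQY2 and YAR068W. ARG1 lies above 0, HXT1 rose more in NFRI 3145, and FRE7, HSC82, RPS28A and TIR4 changed by less there than in NBRC 0224. HSC82, RPS28A and YAR068W read above 10000 in NFRI 3145 already without acid, near the top of the scale.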

How the data were processed

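The authors deposited 1 linear intensity value for each of 10928 probe sets on each of 8 arrays. GCOS made these values, per the submitters' processing notes, which give no version. Per the labels' protocols, RNA came from a hot phenol extraction and was labelled with biotin as Affymetrix describes. The trimmed means of the arrays were nearly equal (500.7 to 500.8), so the deposited values were used as scaled, after log2.

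The 5498 probe sets of 5449 S. cerevisiae genes were recognised through the platform annotation and RefSeq's R64 gene table, used for names and neighbours only. The 47 genes with several probe sets kept the one of highest mean log2 signal. Background was the 95th percentile of 1746 S. pombe probe sets, and a gene was tested if above it on at least 2 of 8 arrays. The other 1570 genes were not tested. Probe sequences follow the reference strain, and mismatches in NBRC 0224 were not checked.

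The fit covered the log2 values of the 8 arrays as 4 group means in limma 3.58.1 (R 4.3.3) with an intensity trend and Benjamini-Hochberg adjustment over 3879 genes. There were 4 residual degrees of freedom, 11.3 after moderation. Calls needed an adjusted p below 0.05. A fold against a group with an array below background is a lower bound, with such arrays raised to their background. No fold is given when both groups are at or below it. Depth is replaced here by signal over background, and the number of arrays limits precision. In 20 simulated data sets of 3879 genes with 200 changed, 44.5% of 2-fold and 82.6% of 4-fold changes were recovered for this contrast, and 5.82% of calls were false. These rates describe the simulated data only. They are not an estimate of the false share among the calls made here.

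The genes named by size are the 15 largest rises and 15 largest falls among calls that hold with any of the 8 arrays left out. Called members of the 54 gene lists, some bright members of lists without calls, as well as FPS1, PMA1, HSP30, HAA1, WAR1 and PDR12 are added. Members, lists and tests were chosen with earlier results of these data known, so lists are described by counts and medians without a test. The planned search of promoters for motifs was not run, since no promoter sequences were used here. Alternatives were other scalings, filters, floors, variance models, probe set choices, a replicate block and leaving out arrays.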

Additional observations from a re-analysis of the deposited data

Results flagged for a closer look

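Of the 15 largest rises and 15 largest falls that hold with any array left out, 6 differed between the strains by the test of the difference itself, given as NFRI 3145 minus NBRC 0224 with its standard error (limma, Benjamini-Hochberg adjusted). The difference was −3.55 ± 0.37 for FRE7 (adjusted p = 0.00107), −3.65 ± 0.37 for PCK1 (adjusted p = 0.00107) and −4.74 ± 0.56 for FBP1 (adjusted p = 0.00283). It was −3.18 ± 0.57 for PRM3 (adjusted p = 0.0274). That value rests on signals of PRM3 below background on both 0% AcOH arrays of NBRC 0224, and the log2 change of PRM3 in NBRC 0224 was not called with dim signals raised to background (0.59, adjusted p = 0.191) or with the 4 NBRC 0224 arrays alone (adjusted p = 0.0604). For the falls ARG1 and TIR4 it was 2.51 ± 0.32 (adjusted p = 0.00414) and 1.95 ± 0.28 (adjusted p = 0.0116). All these genes were chosen by their NBRC 0224 change, which is part of the difference. Over all tested genes 0.851% had a called difference.

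A signal outside the gene comparisons came from the control probe set for S. cerevisiae 5.8S rRNA. It read 20506 and 18959 on the 0% AcOH arrays and 1015 and 2150 on the 0.6% AcOH arrays of NBRC 0224, a log2 change of −3.74. In NFRI 3145 it read 25474 and 25234 without acid and 12534 and 4568 with acid, a change of −1.74. The S. pombe 5.8S rRNA control probe set on the same chip also fell. It read 8097 and 6413 without acid and 204 and 378 with acid in NBRC 0224, a log2 change of −4.7. In NFRI 3145 it read 22390 and 25128 without acid and 2103 and 1117 with acid. The remaining S. cerevisiae rRNA control probe sets moved both ways in NBRC 0224. Those for 25S rRNA changed by −2.3 to 1.36 and those for 18S rRNA by −0.62 to 0.84. The labels call the RNA polyA, and how much rRNA went into each hybridisation is not given in the sources used here. The 3' to 5' ratio of the ACT1 controls lay between 0.926 and 1.02 on the 4 NBRC 0224 arrays. The part of residual rRNA in the gene results was not tested.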

How the results depend on the processing

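The 140 rises became 36 without the intensity trend and 55 with the 4 NBRC 0224 arrays alone. The 186 falls became 292 with dim signals raised to background, 301 with log2 of signal plus 50, 68 without the trend and 87 with the 4 NBRC 0224 arrays alone. Leaving out each array in turn gave 44 to 324 rises and 31 to 423 falls. The 33 called differences became 52 after quantile normalization, 148 with dim signals raised, 140 with signal plus 50, 5 without the trend and 4 to 336 with an array left out, the fewest without 0% AcOH replicate 1 and the most without 0.6% AcOH replicate 1 of NBRC 0224. With the replicate block there were 194 rises, 256 falls and 140 differences. Same-numbered arrays deviated together only weakly (correlation 0.054 in NBRC 0224 and 0.038 in NFRI 3145), so the numbers were not taken to pair the samples. The cause of these shifts was not tested, apart from the fewer arrays in some fits. In the other settings the counts stayed within 1.5 times. The 30 genes named by size stayed called under most settings, 28 of 30 with dim signals raised, 29 without the trend and 28 with the NBRC 0224 arrays alone. The log2 change of YHR214C-E turned to 0.028 with dim signals raised (adjusted p = 0.954), since its signals lie at background. Over 182 single genes and the settings other than leaving out an array, 1837 of 2139 values kept direction and side of the threshold, 298 lost the call and 3 gained it.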

Other observations

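Some called genes outside the lists, picked out after their values were seen, are given as values only. HSF1, the heat shock factor gene, read 77.9 and 106 without acid and 222 and 406 with acid (1.73 ± 0.33). UBC4, a ubiquitin conjugating enzyme, changed by 1.90 ± 0.43, RUB1, a ubiquitin-like modifier, by 1.88 ± 0.38, CUE1 and USA1, of degradation at the endoplasmic reticulum, by 1.68 ± 0.29 and 0.94 ± 0.24, and DSK2, a shuttle to the proteasome, by 0.68 ± 0.15. Lower values were those of ALE1, a lysophospholipid acyltransferase (−1.85 ± 0.31), FAT1, a fatty acid transporter (−1.76 ± 0.39), the phospholipase genes PLB1, PLB2 and PLB3 (−0.48, −0.70 and −0.88), and the ester synthesis genes EEB1 and ATF1 (−1.32 and −1.19). None of these calls held with each array left out in turn. The genes were taken because they were called, so they say nothing of the genes around them: of the 29 tested genes of the proteasome list, 1 was called and 21 had a negative change (median −0.40).

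Of 2443 pairs of neighbouring tested genes, 25 had both members called, 16 of them in the same direction and 9 in opposite directions. Of all tested genes 8.4% were called. How many such pairs would arise without a link between neighbours was not worked out, so the pairs are given as values only. MHT1 and MMP1 both rose (2.01 and 1.33), as did YLL053C and the aquaporin gene AQY2 (0.81 and 1.36) and FRE7 and the reductase gene GRE2 (4.36 and 0.98). YBR182C-A and the ceramidase gene YPC1 both fell (−3.69 and −1.61), as did HEM13 and NRG1, a glucose repressor (−2.26 and −1.64). Among the opposite pairs, RCF1 fell and USA1 rose (−2.76 and 0.94), and TDA10 rose and MVB12 fell (1.17 and −3.15). YLL053C and AQY2 are parts of 1 ancestral reading frame in the reference, so their probe sets may read the same transcript.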
